A study of Mus musculus with 6 samples.

Results

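The genes described here encode the myosin of the ventricular thick filament and the proteins bound to it. They are the heavy chains Myh6, Myh7 and Myh7b, the light chains Myl2 and Myl3, the light chain kinase Mylk3 and the myosin binding proteins Mybpc3 and Mybpc2. The 8 genes were chosen by name, and all 8 were found among the 17447 gene symbols of the count table. Heart RNA of wild-type mice was sequenced in 3 sham-operated and 3 chronic kidney disease (CKD) samples. Sham mice had anaesthesia, laparotomy and exposure of the kidneys with no kidney tissue taken, and CKD was produced by staged subtotal nephrectomy (STNx). All samples carry the same batch label, and the sources used here do not name strain, age, sex or the time of collection. The tissue label is heart, so a restriction to ventricle is not stated.

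A myosin molecule pairs heavy chains, which carry the motor head and the rod, with an essential and a regulatory light chain on each neck. In the mouse heart the fast alpha heavy chain (Myh6) replaces the slow beta chain (Myh7) after birth, and a return of Myh7 is a widely used marker of cardiac hypertrophy. Myosin binding protein C lies along the thick filament and tunes how heads reach actin, and phosphorylation of the regulatory light chain by the cardiac kinase Mylk3 raises force.

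The row labels were checked first. The rank correlation over all rows (Spearman's rho) was 0.982 to 0.985 between sham columns and 0.984 to 0.987 between CKD columns, and -0.0586 to -0.0528 when a sham column was set against a CKD column. Genes are not independent replicates in such a correlation. The 8 rows held between 215 and 474768 counts in the sham columns and between 0 and 2 counts in the CKD columns. Of 6 other cardiomyocyte genes, counts ran from 20045 to 173880 in the sham columns and from 0 to 26672 in the CKD columns. The gene labels of the CKD columns could therefore not be relied on, and no member was compared between the groups. The results below describe the 3 sham hearts. Column totals were 10474487 to 12669724 counts in these hearts, and a count of 0 allows up to 3 counts, or 0.237 to 0.286 CPM per heart. CPM is counts per 1000000 counts of the column. The labels do not say that each sample came from a separate mouse, so the SD is the spread between these samples.

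Both classical heavy chain genes are neighbours on mouse chromosome 14 and are close copies, which limits how reads of Myh6 and Myh7 can be told apart. In the GENCODE M21 annotation the coding sequences, without the stop codon, are 5814 and 5805 bases long and were identical at 91.5% of aligned positions. Of all 100-base stretches of the Myh7 coding sequence, 12.0% also occurred letter for letter in Myh6, and of 50-base stretches 23.9% did. Myh7b shared no 50-base stretch with either, with an identity of 71.5% to Myh7 and 71.1% to Myh6. The sources used here state neither the read length nor how reads with several matches were handled, so the split of reads between Myh6 and Myh7 is uncertain. The 90-base window where both differ most lies in the rod-coding part, at bases 3222 to 3311 of Myh6 and 3216 to 3305 of Myh7 counted from the start codon. It is shown because reads from such a window can be assigned, and capitals mark the 33 bases that differ:
Myh6: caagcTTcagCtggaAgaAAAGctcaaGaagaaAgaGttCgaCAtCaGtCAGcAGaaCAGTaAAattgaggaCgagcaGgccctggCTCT
Myh7: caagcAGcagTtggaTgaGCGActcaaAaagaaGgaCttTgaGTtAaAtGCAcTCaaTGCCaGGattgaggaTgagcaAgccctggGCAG
The longest run without any difference covers 245 bases, at 4246 to 4490 of Myh6, and a read from within it fits either gene:
Myh6 and Myh7: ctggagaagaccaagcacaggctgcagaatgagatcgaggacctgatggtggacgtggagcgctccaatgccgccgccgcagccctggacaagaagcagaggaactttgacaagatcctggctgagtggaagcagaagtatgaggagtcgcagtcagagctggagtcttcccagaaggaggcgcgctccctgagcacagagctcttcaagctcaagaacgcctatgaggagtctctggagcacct

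Each of the 3 heavy chain genes carries a microRNA in an intron, known as the myomiRs. In GENCODE M21 the precursor of miR-208a lies in intron 29 of 38 of Myh6, that of miR-208b in intron 31 of 40 of Myh7 and that of miR-499 in intron 19 of 41 of Myh7b. The mature forms, from RefSeq on GRCm38.p6, are shown because they are transcribed within these host genes. Capitals mark the seed, bases 2 to 8:
mmu-miR-208a-3p, chr14:54949072-54949093, minus strand: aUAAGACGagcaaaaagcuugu
mmu-miR-208b-3p, chr14:54975710-54975731, minus strand: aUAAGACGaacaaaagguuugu
mmu-miR-499-5p, chr2:155622893-155622913, plus strand: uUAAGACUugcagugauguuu
The miR-208 forms share 1 seed, UAAGACG, and miR-499-5p has UAAGACU. These RNAs, and the antisense RNA Mhrt that overlaps Myh7, were not analysed here.

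Myh6 was the highest of all genes in the sham hearts. It held 34589.9, 42319.8 and 37473 CPM in sham 1, 2 and 3, a mean of 38127 ± 3906 CPM (SD, n = 3). The hearts stayed within 1.22-fold of each other, with sham 2 highest and sham 1 lowest. Myh7 held 395, 61.0 and 193 CPM, a mean of 216 ± 168 CPM (SD, n = 3) that was 127 CPM without sham 1. Sham 1 was 6.48-fold above sham 2, and sham 3 lay between. The counting intervals (95%, Poisson) were 383 to 407 CPM in sham 1, 56.4 to 65.9 in sham 2 and 185 to 201 in sham 3, so the hearts differed by more than counting error. Such intervals cover counting error only. Those of every other member but Myl3 were also separate between the hearts, so this does not set Myh7 apart. The share of all genes with separate intervals was not computed. Myh7b, an ancient slow-type heavy chain whose RNA is largely spliced to a non-coding form in mammalian heart, held 39.4, 53.3 and 68.8 CPM, a mean of 53.8 ± 14.7 CPM (SD, n = 3). Sham 1, the highest heart for Myh7, was the lowest for Myh7b, and sham 3 was the highest. In sham 2, Myh7 (61.0 CPM) was close to Myh7b (53.3 CPM), and their counting intervals of 56.4 to 65.9 and 48.9 to 57.9 CPM overlapped.

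**Figure D1:**
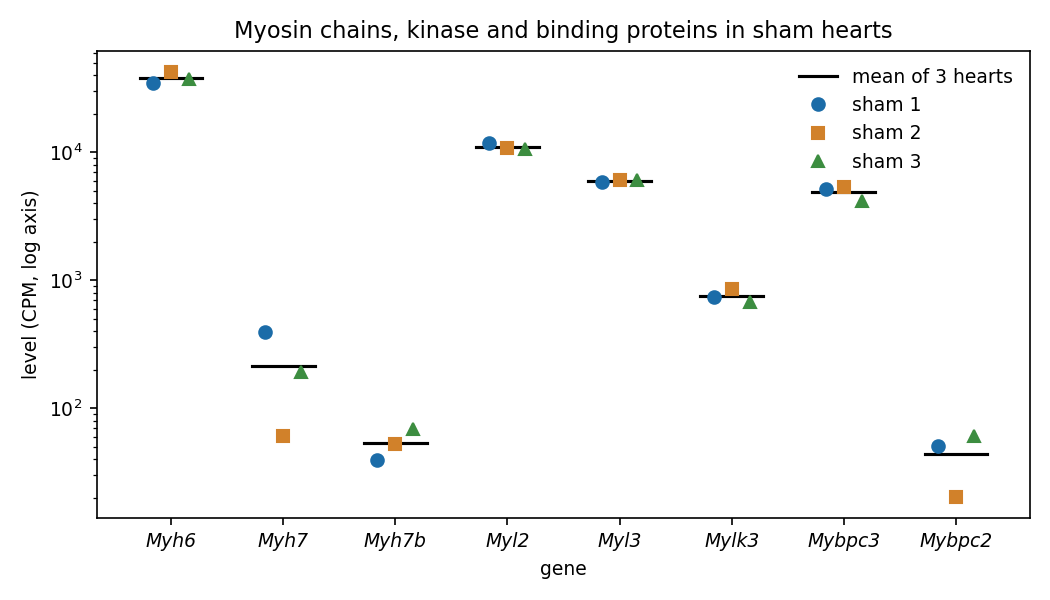
Levels of the 8 genes in the 3 sham hearts, in CPM on a log axis, with a point for each heart and a line at the mean. Myh7 runs from 61.0 CPM in sham 2 to 395 in sham 1, and Mybpc2 from 20.5 to 60.6, while the points of Myh6, Myl2 and Myl3 nearly coincide.

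The Myh7 share of Myh6 plus Myh7 was small in every heart and differed between them. It was 1.13% in sham 1, with 4141 of 366670 counts and a Wilson 95% interval of 1.10% to 1.16%. Sham 2 had 0.144%, with 639 of 443917 counts and an interval of 0.133% to 0.156%. Sham 3 had 0.512%, with 2445 of 477213 counts and an interval of 0.492% to 0.533%. The 3 intervals did not overlap, but they cover counting error only, and at such counts the levels of most members were also separate. The mean was 0.595% ± 0.498 (SD, n = 3), and 0.328% without sham 1. Sham 1 was 7.85-fold above sham 2, which joins the higher Myh7 with the lower Myh6 of that heart. The share needs no scaling between libraries. With counts divided by coding length it was 0.596%, which had to stay close because both coding lengths are nearly equal. How far Myh6 reads assigned to Myh7 change such small shares was not measured. Of all counts of the 3 heavy chains, Myh7b made up 0.113%, 0.126% and 0.182%, a mean of 0.140% ± 0.0372 (SD, n = 3).

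The light chain isoforms that mark atrial muscle had the same order of hearts as the Myh7 share. The share of all genes with this order was not computed. Myl7, the atrial regulatory light chain, made up 4.04% of Myl2 plus Myl7 in sham 1, 0.0132% in sham 2 and 0.765% in sham 3. Myl4, the atrial essential light chain, made up 8.86%, 0.0391% and 1.64% of Myl3 plus Myl4. Both shares were highest in sham 1 and lowest in sham 2, 305-fold and 226-fold apart, far wider than for Myh7. The sham 2 values rested on 15 counts of Myl7 and 25 of Myl4, with Wilson intervals of 0.00803% to 0.0219% and 0.0265% to 0.0578%. Without sham 1 the mean shares fell from 1.60% to 0.389% for Myl7 and from 3.51% to 0.838% for Myl4. The list of 10 atrial markers, all measured and none at 0, summed to 3075 CPM in sham 1, 459.8 in sham 2 and 890.0 in sham 3. Kcnk3 made up most of the sum in sham 2. It varied little, at 356, 371 and 336 CPM, and was highest in sham 2. Gja5, at 12.3, 8.02 and 14.9 CPM, was highest in sham 3. The atrial list was chosen with earlier results of these data known, so its counts by heart are a description only. Of these markers, 8 were highest in sham 1, against 37.0% of all 12491 genes with a mean of at least 1 CPM, and 9 were lowest in sham 2, against 48.8%. Among them Bmp10, a growth factor of atrial muscle, held 261, 1 and 2 counts. The 3 ventricle-enriched markers Irx4, Hey2 and Kcnip2 summed to 284, 278 and 225 CPM, mostly from Kcnip2 at 229, 216 and 167 CPM. Irx4 (49.1, 55.85 and 52.7 CPM) and Hey2 (5.82, 6.11 and 4.97 CPM) were highest in sham 2. The part of atrial RNA in the Myh7 share was not tested. In bulk tissue, more cells of a type and more RNA per cell cannot be told apart.

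**Figure D2:**
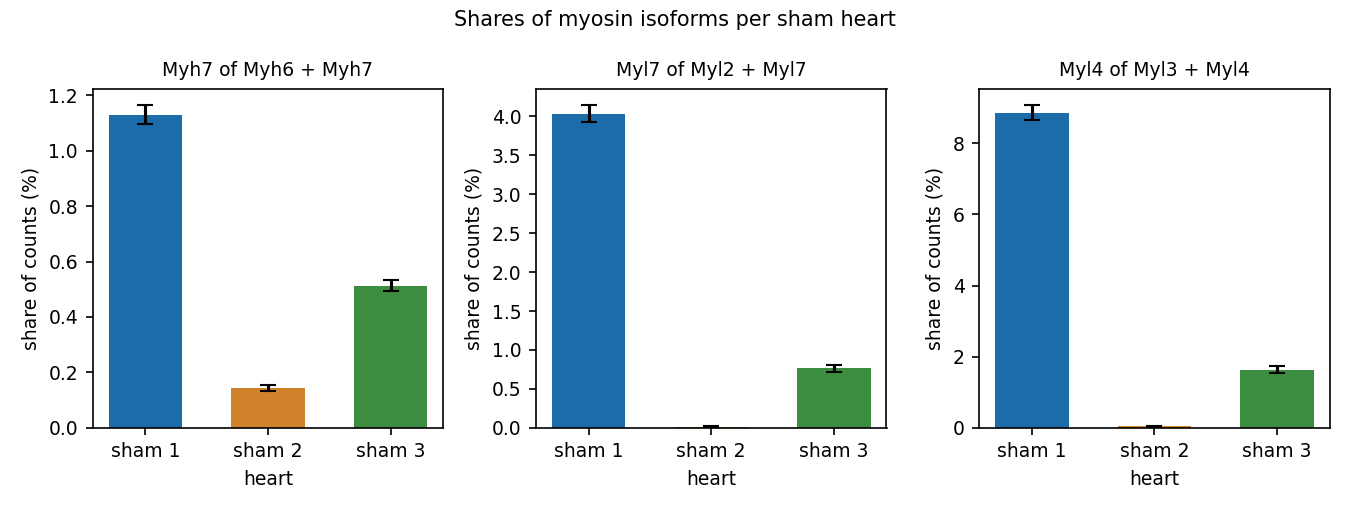
Share of counts (%) of Myh7 in Myh6 plus Myh7, of Myl7 in Myl2 plus Myl7 and of Myl4 in Myl3 plus Myl4, with a bar for each sham heart and Wilson 95% intervals as error bars; the axes differ. In all panels sham 1 is highest (1.13%, 4.04% and 8.86%) and sham 2 lowest (0.144%, 0.0132% and 0.0391%).

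The ventricular light chains themselves were steady. Myl2, the ventricular regulatory light chain, held 11812, 10810.3 and 10565 CPM, a mean of 11062 ± 661 CPM (SD, n = 3). Sham 1 was highest, 1.12-fold above sham 3. Myl3, the ventricular essential light chain, held 5889.5, 6097 and 6021 CPM, a mean of 6003 ± 105 CPM (SD, n = 3), and was the steadiest of the members at a coefficient of variation of 1.75%. The atrial light chains differed by far more, from 1.43 to 497 CPM for Myl7 and from 2.39 to 572 CPM for Myl4.

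The kinase Mylk3 held 744, 864 and 673 CPM, a mean of 760.25 ± 96.6 CPM (SD, n = 3). Sham 2 was highest, 1.28-fold above sham 3. Per kb of coding length, the Mylk3 level was 1.39%, 1.77% and 1.41% of that of its substrate Myl2. The related kinase Mylk4 held 210, 448 and 201 CPM and was also highest in sham 2, 2.23-fold above sham 3. Mylk, the smooth muscle and non-muscle kinase, held 38.7, 30.5 and 63.5 CPM and was lowest in sham 2. The skeletal kinase Mylk2 gave 1, 1 and 4 counts. Of the phosphatase genes, Ppp1cb, a catalytic subunit, was at 456 ± 34.4 CPM and Ppp1r12b, a myosin-targeting subunit, at 437 ± 12.4 CPM (SD, n = 3).

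Mybpc3, the cardiac myosin binding protein C and a frequent site of mutations in human hypertrophic cardiomyopathy, held 5154, 5334 and 4195 CPM, a mean of 4895 ± 612 CPM (SD, n = 3). Sham 3 was lowest and the other hearts were close to each other. Mybpc2, the fast skeletal form, held 50.8, 20.5 and 60.6 CPM, a mean of 44.0 ± 20.9 CPM (SD, n = 3). It was 2.95-fold higher in sham 3 than in sham 2. Mybpc2 made up 0.975%, 0.383% and 1.42% of Mybpc3 plus Mybpc2. The Wilson intervals of 0.896% to 1.06%, 0.335% to 0.438% and 1.33% to 1.53% did not overlap. They cover counting error only, and the level intervals of most members were also separate. Most other skeletal muscle genes were low. Of 10 skeletal muscle markers, 3 reached a mean of 1 CPM (Myl1, Tnni2 and Atp2a1), and Myh1, Myh2 and Myh4 held 0 counts in each heart. The skeletal list summed to 80.4, 47.4 and 72.8 CPM, mostly from Myl1 at 76.0, 44.1 and 66.0 CPM. Mybpc1, the slow skeletal form, gave 1, 3 and 11 counts.

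Levels of different genes were compared per kb of coding length, since longer RNAs give more fragments. On this scale Myl2 was highest at 20952 ± 1252 CPM per kb, followed by Myl3 at 9808 ± 172, Myh6 at 6558 ± 672, Mybpc3 at 1277 ± 160 and Mylk3 at 319 ± 40.5 (SD, n = 3). The per-heart ranges of these 5 genes did not overlap. Myh7 (37.3 ± 29.0), Mybpc2 (12.9 ± 6.13) and Myh7b (9.25 ± 2.53 CPM per kb) followed. Myh7 was the highest of these in each heart, 10.1-fold, 1.15-fold and 2.81-fold above Myh7b, although the ranges over hearts overlapped. Mybpc2 was above Myh7b in sham 1 and sham 3 and below it in sham 2. The ratio of Myl2 to the summed heavy chains was 3.71, 2.81 and 3.08, and that of Myl3 was 1.60, 1.36 and 1.52. Each heart thus held more light chain than heavy chain RNA on this scale. With the whole transcript as the length, the mean ratio of Myl2 was 2.44 ± 0.355 and that of Myl3 1.03 ± 0.0811 (SD, n = 3), with Myl3 below the heavy chains in sham 2 at 0.937. The excess of Myl3 therefore depends on the length used. Mybpc3 stood at 0.223, 0.191 and 0.169 of the heavy chains per coding length, and Myh6 exceeded Myh7 by 87.4-fold, 693-fold and 194-fold.

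**Figure D3:**
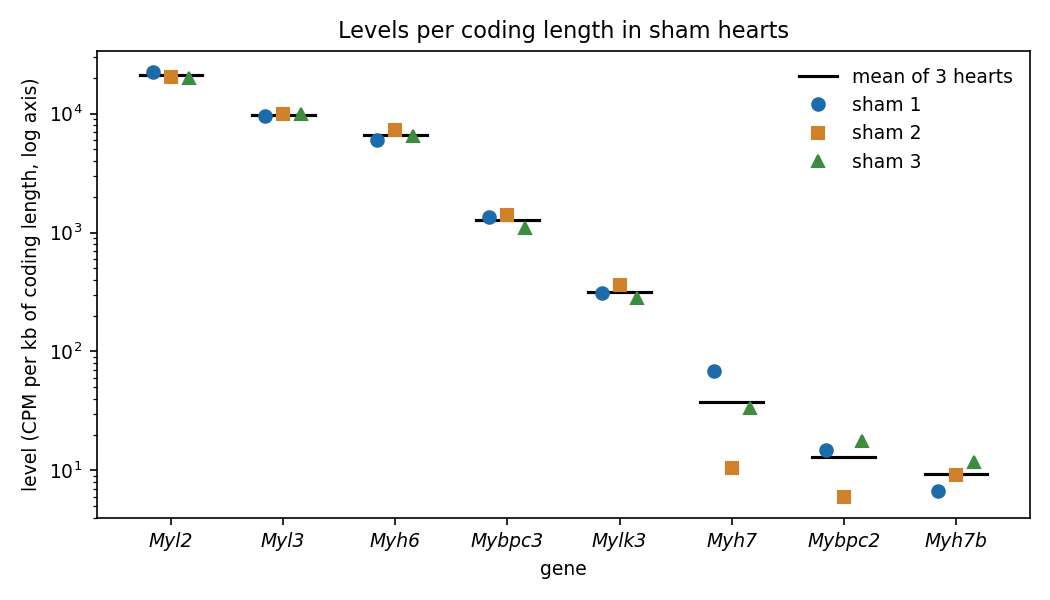
Levels of the 8 genes in CPM per kb of coding length on a log axis, ordered by mean, with a point for each sham heart and a line at the mean. The first 5 genes, from Myl2 at 20952 to Mylk3 at 319 CPM per kb, keep separate ranges, and those of Myh7, Mybpc2 and Myh7b overlap.

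The spread of each member was read against all genes. Of 8864 genes with a mean of at least 10 CPM, 5.86% reached a coefficient of variation (SD over mean) of 30%, and 2 of the 8 members did, Myh7 at 77.8% and Mybpc2 at 47.5%. The median over the members was 12.6%, against 9.32% over all these genes. Myh7 varied more than 99.0% of them, Mybpc2 more than 97.5% and Myh7b, at 27.3%, more than 92.8%. Myl3 varied more than only 2.76%. By heart, 4 members were highest in sham 2 (Myh6, Myl3, Mylk3 and Mybpc3), against 23.5% of all these genes. Another 2, Myh7 and Myl2, were highest in sham 1, against 36.9% of genes, and Myh7b and Mybpc2 were highest in sham 3, against 39.6%. The heart that was highest was the same for each of the 8 members with TMM factors, DESeq2 size factors or a total without the 10 highest rows. All 6 cardiomyocyte markers outside the members were also highest in sham 2, while the fibroblast list (7 of 7), the smooth muscle list (5 of 5) and the macrophage list (4 of 4) were lowest there. Sham 2 was lowest for 48.8% of all genes with a mean of at least 1 CPM.

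**Figure D4:**
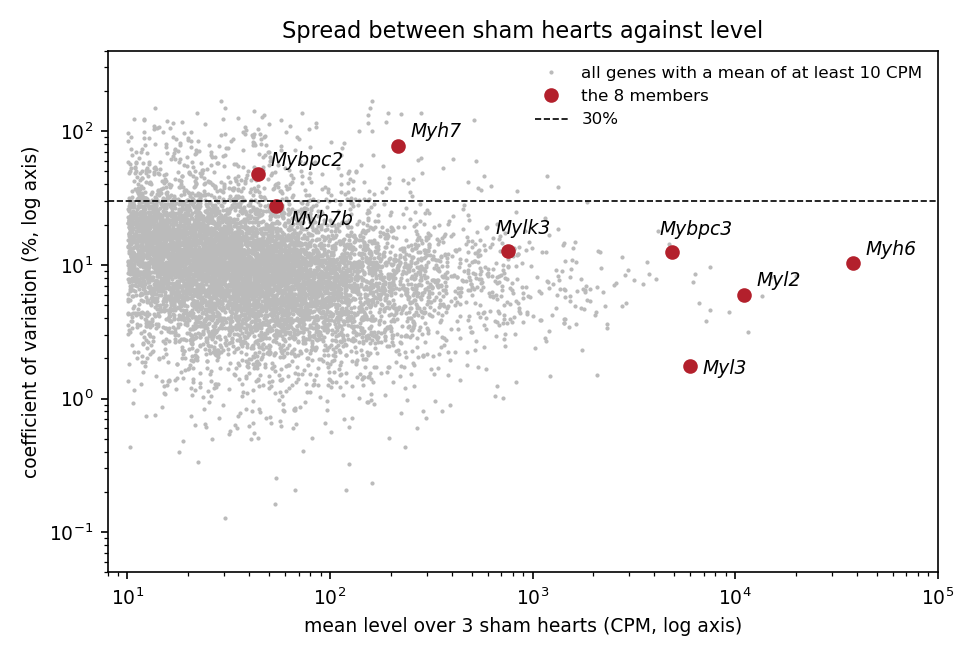
Coefficient of variation (%) over the 3 sham hearts against mean level (CPM), both on log axes, for all genes with a mean of at least 10 CPM (grey) and the 8 members (red). Myh7 (77.8%) and Mybpc2 (47.5%) lie above the dashed line at 30%, and Myl3 (1.75%) is the lowest member.

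Myosins of other muscles and of non-muscle cells were read from fixed lists. None of 6 measured sarcomeric heavy chains outside the members reached a mean of 1 CPM. Myh8, the perinatal chain, gave 4, 0 and 1 counts and Myh13, the extraocular chain, 1, 0 and 0. All 4 smooth muscle and non-muscle heavy chains exceeded 1 CPM, led by Myh9 at 199 ± 49.9 and Myh14 at 147 ± 17.9 CPM (SD, n = 3). Myh14 is also an older name of Myh7b in RefSeq, and the table has a row for each. Myh11, the smooth muscle chain, held 66.6, 45.7 and 140 CPM, and only it reached a coefficient of variation of 30% in this list. Of 8 other light chains with a mean of 1 CPM or more, 3 reached that spread, namely Myl4, Myl7 and Myl9, against 15.1% of 12491 genes with that mean. All 8 were lowest in sham 2, against 48.8% of those genes. Myl9, the smooth muscle regulatory chain, held 62.9, 23.6 and 74.3 CPM, and the non-muscle chain Myl12a led the list by counts at 810.1 ± 109 CPM (SD, n = 3). Mybphl, an atrial relative of the binding proteins, held 82.4, 0.286 and 8.21 CPM, where the sham 2 value was 3 counts.

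Of 11 partners of the thick filament, 0 reached a coefficient of variation of 30%, where 15.1% of all genes with a mean of 1 CPM or more did and 5.86% of those with 10 CPM or more, the level of most of these partners. Their median of 10.4% lay between the medians of 11.8% and 9.32% over the same sets of genes. Titin (Ttn), the molecular spring and ruler of the filament, stood at 4699 ± 668 CPM and the M-band protein Myom1 at 2269.9 ± 112 CPM (SD, n = 3). The myosin chaperone Unc45b was at 264 ± 37.9 CPM and Smyd1, a muscle methyltransferase that acts in myosin assembly, at 722 ± 63.1 CPM. Unc45b and Smyd1 were named after their values were seen. Of 9 kinases and phosphatase genes at 1 CPM or more, 2 reached 30%, Mylk and Mylk4, against the same shares of all genes.

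Of 18 transcriptional regulators known to act on myosin genes, 1, Tbx5, reached 30%, which is close to the 5.86% of all genes with a mean of 10 CPM or more, the level of most of these regulators. Tbx5, which is enriched in atria, held 67.5, 39.2 and 35.0 CPM and was highest in sham 1. Tead1, which binds the MCAT element of muscle genes, led the list at 282 ± 20.1 CPM, followed by Mef2a at 252 ± 11.9 CPM (SD, n = 3). The thyroid hormone receptors, through which the hormone raises Myh6 and lowers Myh7, were at 128, 94.2 and 115 CPM for Thra and 24.2, 21.5 and 23.0 CPM for Thrb. Both receptors were also named after their values were seen. Over the whole list the median coefficient of variation was 7.29%, against 9.32% over those genes.

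The sequences before the start sites of Myh6 and Myh7 are shown because the pair is known to be controlled by TEAD factors and thyroid hormone, and their levels lay far apart. The sequences are from RefSeq on GRCm38.p6, minus strand, for Myh7 the outer of its listed starts, and capitals mark the letters of a searched motif. The window searched was the 250 bases before the RefSeq start. For Myh6 the 34 bases nearest the start lie in the first exon of a GENCODE M21 transcript and are not shown. The MCAT element was searched by the letters CATTCC, the TATA box by TATAAA and the nuclear receptor half-site by AGGTCA, each on both strands, and no matches in the members overlapped:
Myh6, chr14:54966642-54966857: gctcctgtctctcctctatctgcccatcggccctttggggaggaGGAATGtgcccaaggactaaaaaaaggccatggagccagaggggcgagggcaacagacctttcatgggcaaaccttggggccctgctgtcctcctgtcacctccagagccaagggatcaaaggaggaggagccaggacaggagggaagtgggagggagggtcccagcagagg
Myh7, chr14:54994627-54994876: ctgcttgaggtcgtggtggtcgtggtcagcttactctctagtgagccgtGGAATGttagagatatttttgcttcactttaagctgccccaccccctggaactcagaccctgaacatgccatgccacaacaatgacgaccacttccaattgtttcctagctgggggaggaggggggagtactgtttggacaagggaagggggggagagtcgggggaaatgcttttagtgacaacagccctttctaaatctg
Each window shown held 1 match, GGAATG, the reverse strand of CATTCC, which began at -206 in Myh6 and -201 in Myh7 relative to the start. The window of the inner listed start of Myh7 held 0 matches, so the Myh7 match and its position depend on the start used. CATTCC occurred in 5 of 11 start-site windows of the members (some genes have several), against 12.6% of 32851 windows of all genes. Windows of the same gene can overlap, as those of Myh7 do, so they are not independent, and no test was made. TATAAA occurred in 1 of 11 against 12.4%, and AGGTCA in 2 of 11 against 14.0%. These are matches of letters and show no binding.

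**Figure D5:**
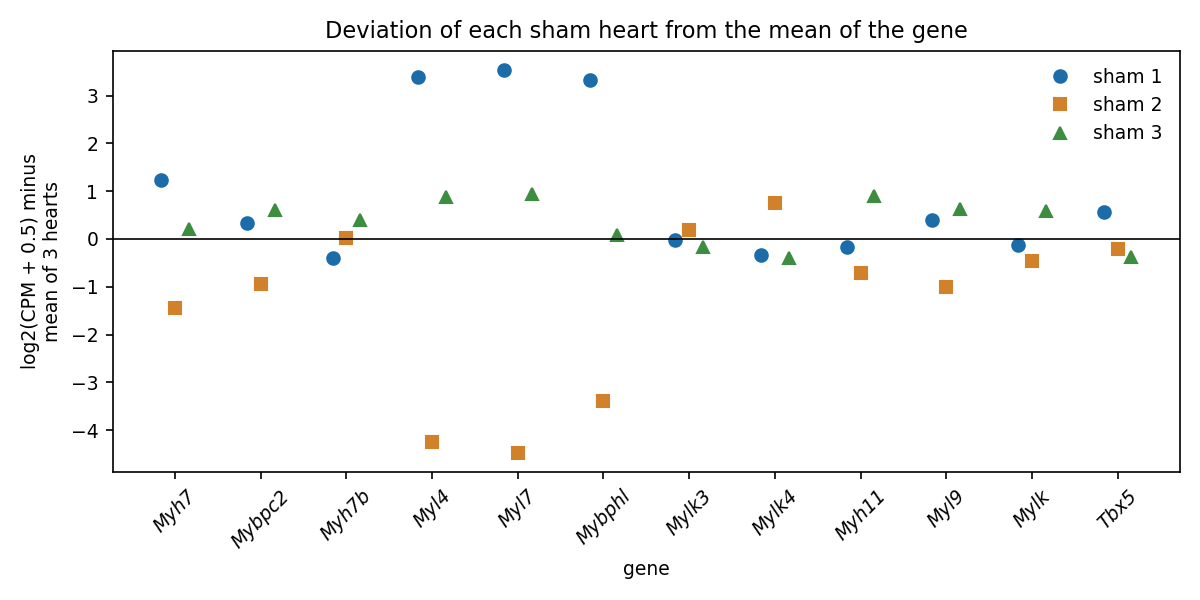
Deviation of each sham heart from the mean of the gene, as log2(CPM + 0.5), for the 3 most variable members, Mylk3 and genes from the fixed lists. Myh7, Myl4, Myl7 and Mybphl share the order sham 1, sham 3, sham 2 from high to low, while Mybpc2, Myh11, Myl9 and Mylk are highest in sham 3.

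The genes whose levels followed Myh7 most closely over the 3 hearts were sought among 8756 named genes with at least 10 CPM. Likeness was the largest difference, over the hearts, between both genes' log2(CPM + 0.5) centred on the mean of the gene. Egr1, an immediate early transcription factor, was nearest at a difference of 0.10, with 118, 19.4 and 65.4 CPM. It was the only gene within 0.25. Next came Cdkn1a, a cell cycle inhibitor, at 0.32, Arntl, a core clock factor, at 0.42, Cldn5, an endothelial junction protein, at 0.47 and Zfp36, an mRNA decay factor, at 0.52. All 5 were highest in sham 1 and lowest in sham 2, which follows from choosing them by likeness to Myh7. Among the members the nearest was Mybpc2 at 0.90. The atrial genes Nppa, Myl4 and Myl7 were at 0.93, 2.81 and 3.03, and the other atrial markers ran from 0.94 for Nr2f2 to 2.52 for Sln. The measure counts the size of the differences between hearts as well as their order. Nppa, Myl4 and Myl7 had the same order of hearts as Myh7, with wider gaps. Ranked by likeness among genes with a mean of at least 1 CPM (12491 with Myh7 counted), Nppa was at 415, Myl4 at 12485 and Myl7 at 12488. Myl4 and Myl7 were thus among the genes least like Myh7 by this measure. With 3 hearts, such likeness is a description only.

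Some further rows bear on how the levels read. In RefSeq the span of Myh7b overlaps that of Trpc4ap, which held 1851, 1620 and 1910 counts, and that of Mybpc2 overlaps Fam71e1, with 19, 22 and 13 counts. The span of Myh7 overlaps the antisense RNA Mhrt, which has no row in the count table. Reads of Mhrt may therefore be part of the Myh7 counts and share. The sources used here do not say whether strand was used in counting, so reads of overlapping genes may not be told apart. All 3 conduction system and nodal markers were lowest in sham 2, as were 48.8% of all genes, with Cntn2 at 27.1, 4.68 and 35.8 CPM, Cacna2d2 at 43.1, 2.96 and 15.9 CPM and Hcn4 at 31.3, 17.0 and 28.7 CPM. Their part in the spread of Myh7 and Mybpc2 was not tested. The summed endothelial list was 0.164%, 0.154% and 0.175% of the counts, the fibroblast list 0.180%, 0.0936% and 0.212%, the smooth muscle list 0.0317%, 0.0207% and 0.0521% and the macrophage list 0.0335%, 0.0245% and 0.0395%.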

How the data were processed

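The authors deposited raw counts for each gene symbol, as whole numbers, in a table whose columns were matched to samples by name. The tools named in the submitters' processing notes are Trimmomatic, HISAT2, HTSeq and DESeq, with build mm9; the sources used here state no versions, settings, annotation or strandedness. The 3 CKD columns were used for the label check only. CPM was computed from the column totals, and means, SDs and coefficients of variation over the 3 sham hearts. Intervals are 95% (Wilson for shares, Poisson for levels) and cover counting error only. No test between groups was made. Coding and transcript lengths came from GENCODE M21 (the transcript with the longest coding sequence), used for lengths, coding sequences and intron positions only, since its build (GRCm38) differs from that of the counts. Coding sequences were aligned with Biopython 1.88. Normalization factors for the alternatives came from edgeR 4.0.16 and DESeq2 1.42.0 in R 4.3.3, and statistics from scipy 1.17.1.

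The members and the 17 gene lists were chosen with earlier results of these data known. Of 111 listed symbols, 104 were in the table. By rule the text names all members, the 2 highest genes of each pathway list and those at 1 CPM or more with a coefficient of variation of 30% or more, up to 3 markers of a list by spread, and the 5 genes most like Myh7 (pseudocount 0.5 CPM); other listed genes were named after their values were seen. The likeness search was tested only on simulated counts in which genes were given the Myh7 pattern. Such a check of the search says nothing about likeness in these hearts.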

Additional observations from a re-analysis of the deposited data

How the results depend on the processing

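Of 48 alternative values for the levels of the 8 genes (TMM, DESeq2 size factors, a total without the 10 highest rows, and each heart left out), 43 moved by less than 1 SD, and the other 5 came from the total without the 10 highest rows, a smaller denominator. With 3 hearts, the mean can never shift by as much as 1 SD when a heart is dropped, so those settings say nothing about stability. The Myh7 share ranged from 0.328% to 0.821%, the Myl7 share from 0.389% to 2.40% and the Myl4 share from 0.838% to 5.25% when 1 heart was left out, the low ends being without sham 1. Summed over hearts they were 0.561%, 1.66% and 3.49%. The number of genes with a coefficient of variation of 30% or more was 519, and it rose to 1886 of 12491 genes with a minimum mean of 1 CPM and to 5031 of 15889 with no minimum, which include more genes of few counts; it was 463 with TMM. With a minimum of 1 CPM, 1 of the 5 genes most like Myh7 stayed among the 5 nearest. The use of transcript length, which changed the light chain ratios, was added after seeing the data. No paired analysis was possible because the CKD columns were not compared with sham and no result comes from a test. Depth limits several values, which rest on 25 counts or fewer. These include Myl4, Myl7 and Mybphl in sham 2 and Bmp10 in sham 2 and sham 3. They also include Mybpc1, Mylk2, Myh8, Myh13 and the skeletal genes Myh1, Myh2, Myh4, Mylpf, Tnni2, Atp2a1, Tnnt3, Actn3 and Pvalb in each heart.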
